A study of Mus musculus with 4 samples.

Results

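The genes described here are 10 markers of endothelial cells, the cells that line blood vessels: Pecam1, Cdh5, Kdr, Flt1, Tek, Tie1, Robo4, Esam, Emcn and Eng. They were taken by gene symbol from the annotation of the array, on which each of the 10 has 1 probe set, out of 21225 probe sets and 20239 with a gene symbol. RNA came from the gonadal white adipose tissue (WAT) of male NMRI mice, an outbred strain, aged 48 days. One group had received a fat diet (FD) with 18% fat for 8 days from the age of 40 days, and the other a normal diet (ND) with 3.3% fat throughout. The labels call the first a high fat diet, but by its fat content it is the FD of the study. The RNA of 3 mice was pooled for each diet, and each pool was hybridised to 2 Affymetrix mouse gene arrays, so the arrays of a diet are technical duplicates of 1 RNA pool and there is no test of the diets.

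Endothelial cells of adipose tissue form a dense capillary network through which fatty acids and hormones reach adipocytes. They are recognised by adhesion molecules of their junctions (Pecam1, Cdh5, Esam) and by receptors that take up growth signals. These receptors include those of vascular endothelial growth factors (Kdr, Flt1), the angiopoietin receptor Tek with its relative Tie1, the TGF-beta co-receptor Eng and the guidance receptor Robo4, while Emcn encodes a sialomucin of the cell surface. Vessel growth goes along with the expansion of fat depots. Some of these genes are also expressed outside endothelium, Pecam1 by platelets and leukocytes, Flt1 by monocytes and Eng by stromal cells.

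Values are log2 expression from RMA, which subtracts background, brings the arrays to 1 distribution and combines the probes of a probe set. A difference is the mean of the FD arrays minus the mean of the ND arrays, so that 1 means 2-fold. A gene was called when this difference was 1.5-fold or more (a log2 difference of 0.58), both FD arrays lay on the same side of both ND arrays and the gene's mean level was 6 or higher, as in 18211 probe sets. The SD between duplicate arrays over these probe sets was 0.08 in FD and 0.12 in ND. Adipocyte genes marked the tissue in both pools, with Adipoq, the gene of adiponectin, at 13.46 and 13.45 in FD and at 13.25 and 13.54 in ND. Of an epididymal list, all 7 genes that reached the level of 6 in both pools were called lower in FD.

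All 10 endothelial marker genes reached the level of 6, and in all 10 both FD arrays lay above both ND arrays. Over all probe sets at that level the FD arrays lay above the ND arrays in 36.3%, and below them in 27.2%. Among the 3710 probe sets with a mean of at least 10, a level that all 10 exceed, the share with both FD arrays higher was 33.3%. The differences were small. Their median was 0.34, or 1.26-fold, against 0.03 over all probe sets, and their SD over the 10 genes was 0.16. Robo4 was the one gene called higher, where 1.33% of all probe sets were called higher, and none was called lower, where 4.28% of all probe sets were. At a threshold of 1.3-fold, Robo4, Esam and Tek were called higher, which is 3 of 10 against 4.77% of all probe sets. All 10 differences were above 0 with the arrays as deposited, after centring each array on its median, after cyclic loess and after scaling on reference genes, while scaling on adipocyte genes turned the sign of Kdr and scaling on fibroblast genes that of 8 genes, all but Robo4 and Esam. In whole tissue, fewer or more endothelial cells and less or more of these RNAs in each cell cannot be told apart. The pools also differed in epididymal genes, which were lower in FD, and the part of this in the values of the 10 was not tested.

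**Figure D1:**
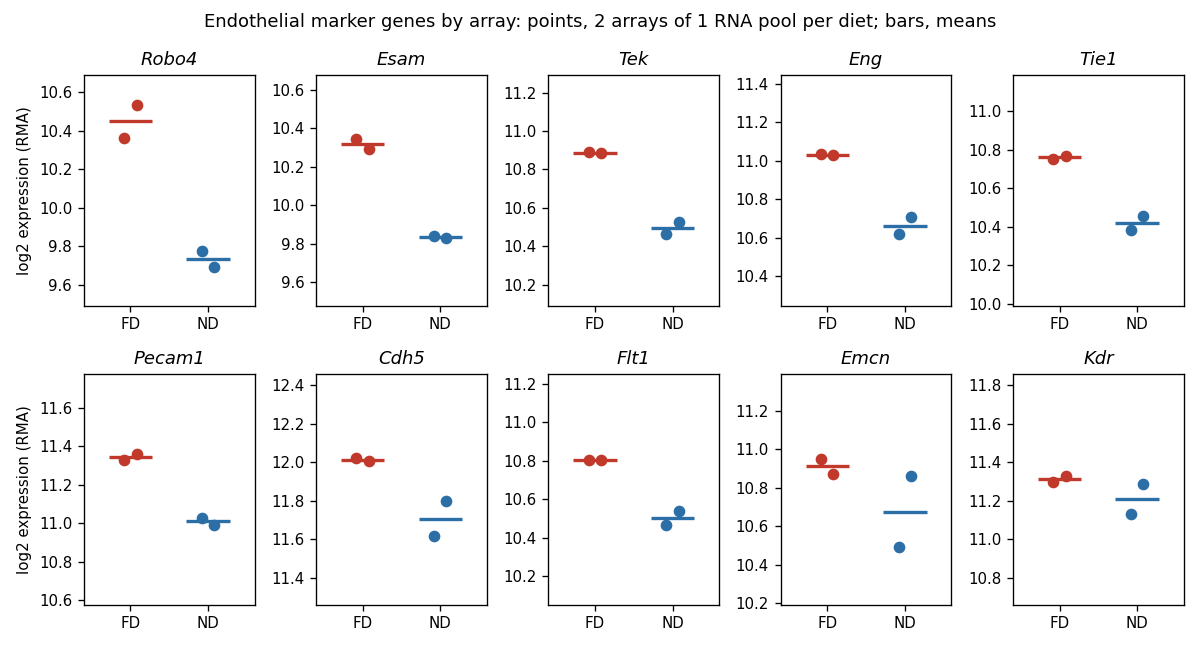
Log2 expression (vertical axis, RMA) of each of the 10 endothelial marker genes on the 2 FD and the 2 ND arrays, with bars at the means and an axis of the same span in every panel. Both FD arrays lie above both ND arrays in all 10 panels, by 0.59 in Robo4 and by 0.0094 in Kdr. Scaling on adipocyte genes turns the sign of Kdr, and scaling on fibroblast genes that of 8 of the 10.

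The receptors of vascular endothelial growth factors had small differences, and that of Kdr was the lowest of the 10. Kdr encodes the main signalling receptor for VEGF-A on endothelium. It was at 11.30 and 11.33 on the FD arrays and at 11.13 and 11.29 on the ND arrays. The higher ND array came within 0.0094 of the lower FD array, while the ND duplicates were 0.16 apart, so the gap between the pools was within the spread of the arrays. That spread is technical and cannot show whether the diets differ. The Kdr difference was 0.10, and 5968 of 17366 named genes at this level, or 34.4%, had one at least as high. It rested on the ND arrays and was 0.02 when ND array 1 was dropped and 0.18 when ND array 2 was dropped. Flt1 encodes a receptor that binds VEGF-A, VEGF-B and placental growth factor and limits signalling through Kdr. It was at 10.80 and 10.81 in FD and at 10.46 and 10.54 in ND, without overlap. The difference was 0.30, and the lower FD array exceeded the higher ND array by 0.26.

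Among 7 ligands and co-receptors of Kdr and Flt1, 4 were higher on both FD arrays (36.3% of all probe sets), 1 was lower (27.2%) and 2 overlapped. Over the 26 measured genes of the list that holds the ligands and partners, 18 differences were above 0 as deposited (median 0.09). This was so for 12 after scaling on adipocyte genes (-0.04) and for 1 after scaling on fibroblast genes (-0.39). The list also holds other vessel genes, Aplnr (0.50), Angptl4 (0.45), Apln (0.38) and S1pr1 (0.18), all above 0 as deposited. Vegfa, the gene of VEGF-A, was at 10.89 and 10.83 in FD and at 10.61 and 10.63 in ND, a difference of 0.24. Vegfb differed by 0.21, Vegfc by 0.30 and the co-receptor gene Nrp1 by 0.35, and none of these was called. Pgf, which encodes placental growth factor, a ligand of Flt1, went the other way. It was at 8.16 and 8.18 in FD and at 8.99 and 9.03 in ND. Its difference of -0.84 was called, the only call among the 26 genes of that list, where 4.28% of all probe sets were called lower. Vegfd at -0.05 and Nrp2 at 0.03 overlapped between the diets.

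The TIE receptors, Tek and Tie1, lay close together. Tek encodes TIE2, the receptor of the angiopoietins, and was at 10.89 on both FD arrays and at 10.47 and 10.53 on the ND arrays. The difference was 0.39, with a gap of 0.36 between the lowest FD and the highest ND array. Tie1, an orphan receptor that pairs with Tek, was at 10.75 and 10.77 in FD and at 10.38 and 10.46 in ND, a difference of 0.34. In both genes the gap between the diets exceeded the difference between the duplicates of either diet. The angiopoietin genes were mixed. Angpt1, the activating ligand, was at 9.99 and 9.94 in FD and at 10.16 and 10.22 in ND, a difference of -0.23. Angpt2, the context-dependent ligand, differed by 0.09 with both FD arrays higher, and Angpt4 by -0.10 with overlapping arrays.

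Eng encodes endoglin, which presents ligands of the TGF-beta and BMP families to endothelial receptors. It was at 11.03 on both FD arrays and at 10.62 and 10.71 on the ND arrays, and differed by 0.37. The receptor genes that signal with it, Acvrl1 and Tgfbr2, differed by 0.32 and 0.40, both without overlap. Acvrl1 was at 9.84 and 9.98 in FD and at 9.59 and 9.58 in ND. Tgfbr1, the type I receptor of TGF-beta, had a difference of -0.20, at 9.80 and 9.89 in FD and at 9.98 and 10.10 in ND. Of the ligands, Tgfb1 differed by 0.04 with overlapping arrays and Gdf2, the gene of BMP9, by 0.08, while Bmp10 stayed under a mean of 6.

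Robo4 had the largest difference of the 10. It encodes an endothelial member of the roundabout family of guidance receptors, which stabilises vessels. It was at 10.36 and 10.53 on the FD arrays and at 9.77 and 9.69 on the ND arrays, and averaged 10.45 ± 0.12 in FD and 9.73 ± 0.06 in ND (SD over 2 duplicate arrays of a single pool). It differed by 0.72, or 1.64-fold, while the FD duplicates were 0.17 apart. Of 17366 named genes at this level, 121, or 0.697%, had a difference at least as high. Against the median of 0.28 of 30 other endothelial genes, Robo4, the largest of the 10, was higher by 0.43. The largest of those 30, Mmrn2, was at 0.59. Unc5b, the gene of a binding partner of ROBO4, differed by 0.16. The Slit genes encode ligands of the roundabout family, and of these Slit2 had a difference of -0.48, at 8.27 on both FD arrays and at 8.67 and 8.82 on the ND arrays, while Slit3 overlapped between the diets.

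The junction genes differed by 0.31 to 0.48. Esam, an immunoglobulin-type adhesion molecule of tight junctions, was at 10.35 and 10.29 in FD and at 9.84 and 9.83 in ND. Its difference of 0.48 was the second highest of the 10, and the ND duplicates were only 0.01 apart. Pecam1, the gene of CD31, was at 11.33 and 11.36 in FD and at 11.03 and 10.99 in ND, a difference of 0.33. Cdh5 encodes VE-cadherin, the adhesion molecule of endothelial adherens junctions. It was at 12.02 and 12.01 in FD and at 11.62 and 11.80 in ND, a difference of 0.31. The ND duplicates of Cdh5 were 0.18 apart, and the gap between the diets was 0.21. The catenin genes, whose products anchor VE-cadherin and are made in most cells of the tissue, were mixed, with Jup at 0.27 and Ctnna1 at 0.09 above 0 and Ctnnb1 at -0.15 and Ctnnd1 at -0.06 below it.

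Emcn encodes endomucin, a sialomucin of capillaries and veins. It was at 10.95 and 10.87 in FD and at 10.49 and 10.86 in ND. One ND array thus came within 0.013 of the lower FD array while the other was 0.37 lower, the widest spread of any duplicate pair in the 10 genes. The difference of 0.24 thus rests on the ND arrays, and became 0.05 with ND array 1 left out and 0.42 with ND array 2 left out.

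**Figure D2:**
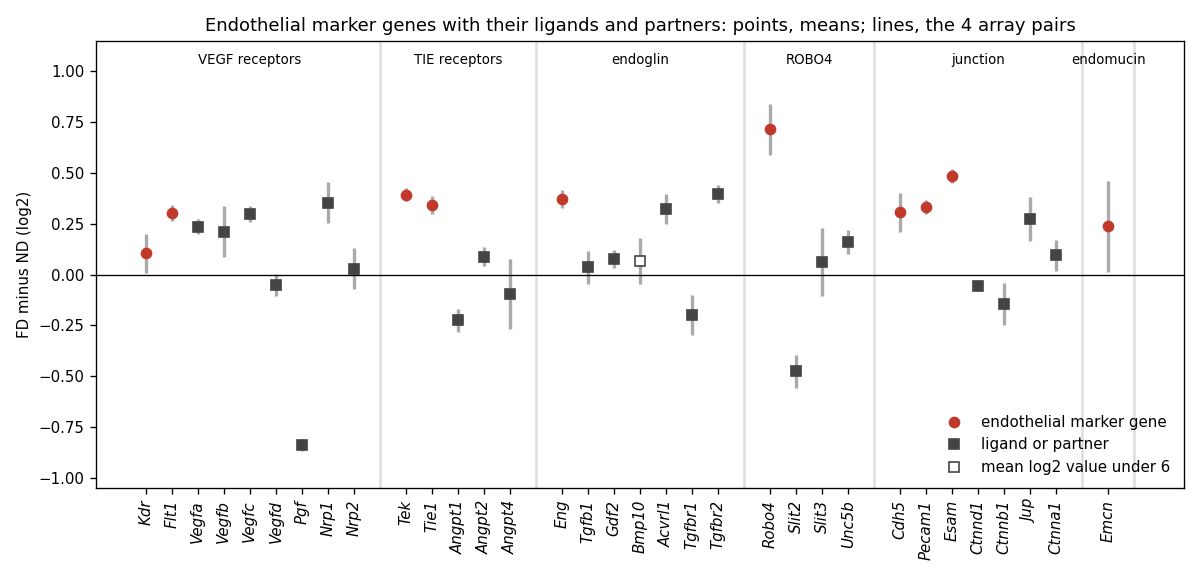
Difference between FD and ND (vertical axis, log2) of the endothelial marker genes (circles) and of their ligands and partners (squares), ordered by pathway, with lines over the 4 pairs of an FD and an ND array. All circles lie above 0, from 0.10 in Kdr to 0.72 in Robo4, but Kdr lies below it after scaling on adipocyte genes and 8 of them after scaling on fibroblast genes, while the squares lie on both sides of 0 and Pgf at -0.84 is lowest.

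The duplicates showed how far the arrays themselves vary. In FD the SD of duplicates lay between 0.0011 in Eng and 0.12 in Robo4, and in ND between 0.0096 in Esam and 0.26 in Emcn. ND array 2 was above ND array 1 in 7 of the 10 genes, with a median of 0.07, against 0.06 over all probe sets. FD array 2 was above FD array 1 in 5 of the 10. In each of the 4 pairs of an FD and an ND array all 10 genes were higher in FD, as were 36.3% of all probe sets. The median over the 10 genes lay between 0.31 for FD array 1 with ND array 2 and 0.41 for FD array 1 with ND array 1. In Kdr and Emcn, alone of the 10, the gap between the lowest FD and the highest ND array was smaller than the difference between the ND duplicates. The share of all probe sets with so small a gap was not computed. Apart from Robo4, Esam and Kdr, the other 7 genes lay within 0.24 to 0.39.

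**Figure D3:**
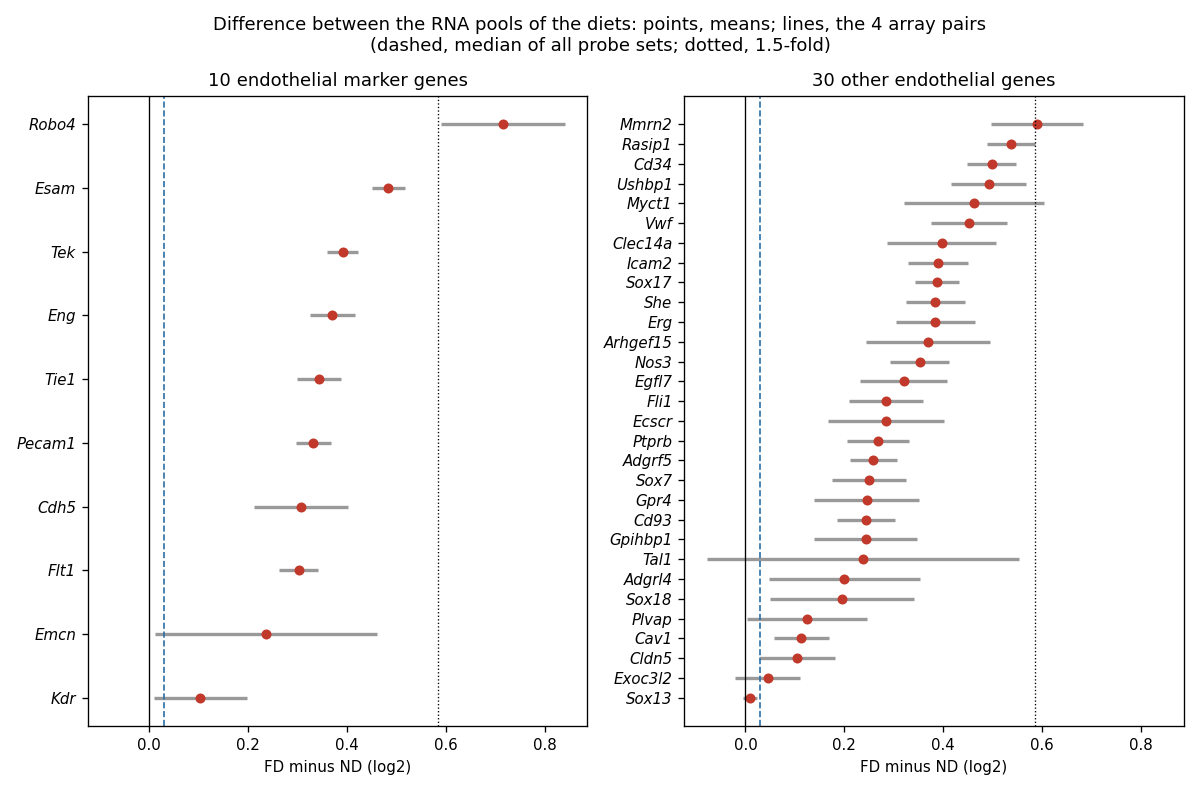
Difference between FD and ND (horizontal axis, log2) of the 10 endothelial marker genes and of 30 other endothelial genes, with points at the difference of means and lines over the 4 pairs of an FD and an ND array. All points lie above 0, with medians of 0.34 for the marker genes and 0.28 for the others, and only Robo4 at 0.72 and Mmrn2 at 0.59 lie past the dotted line of 1.5-fold (the dashed line is the median of all probe sets, 0.03). Scaling on adipocyte genes turns the sign of Kdr, and scaling on fibroblast genes that of 8 of the marker genes.

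Promoter windows are shown for Robo4 and Kdr, the genes with the highest and the lowest difference, and for the receptor pair Tek and Tie1. The RefSeq table for GRCm38.p6, with 250 bases before and 50 after a gene's start, holds windows for 7 of the 10 genes, and Pecam1, Cdh5 and Esam are named only. Capitals mark GGAA on either strand (GGAA or TTCC), the core that ETS factors bind. ETS factors such as ERG and FLI1 are known regulators of endothelial genes, and Erg differed by 0.38 and Fli1 by 0.28 without being called. The Robo4 window is at chr9:37401722-37402021 on the plus strand, that of Kdr at chr5:75978406-75978705 (minus), that of Tek at chr4:94739039-94739338 (plus) and that of Tie1 at chr4:118489800-118490099 (minus).
Robo4: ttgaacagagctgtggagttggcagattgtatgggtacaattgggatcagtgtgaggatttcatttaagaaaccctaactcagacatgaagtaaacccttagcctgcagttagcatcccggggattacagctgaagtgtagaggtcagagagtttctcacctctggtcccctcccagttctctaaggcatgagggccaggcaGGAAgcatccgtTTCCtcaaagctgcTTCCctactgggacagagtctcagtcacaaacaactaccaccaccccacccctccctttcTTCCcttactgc
Kdr: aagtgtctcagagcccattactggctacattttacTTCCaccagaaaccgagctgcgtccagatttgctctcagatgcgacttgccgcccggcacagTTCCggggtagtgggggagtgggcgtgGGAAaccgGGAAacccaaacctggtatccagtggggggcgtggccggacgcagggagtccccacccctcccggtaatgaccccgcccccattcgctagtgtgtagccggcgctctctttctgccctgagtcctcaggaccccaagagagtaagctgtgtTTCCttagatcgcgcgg
Tek: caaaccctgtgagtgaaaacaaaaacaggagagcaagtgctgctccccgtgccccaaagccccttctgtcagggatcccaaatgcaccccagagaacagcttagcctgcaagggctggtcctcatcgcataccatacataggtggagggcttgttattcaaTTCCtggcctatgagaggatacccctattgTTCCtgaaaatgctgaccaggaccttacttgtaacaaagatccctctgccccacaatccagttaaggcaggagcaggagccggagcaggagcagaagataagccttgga
Tie1: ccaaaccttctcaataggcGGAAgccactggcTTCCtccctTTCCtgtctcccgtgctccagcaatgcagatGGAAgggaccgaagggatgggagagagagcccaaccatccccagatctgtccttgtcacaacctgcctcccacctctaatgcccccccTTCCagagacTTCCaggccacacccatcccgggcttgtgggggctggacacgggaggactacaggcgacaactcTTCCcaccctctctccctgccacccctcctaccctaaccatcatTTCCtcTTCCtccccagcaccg
The core occurred 4 times in the Robo4 window, 5 times in Kdr, 2 times in Tek and 9 times in Tie1, and between 2 and 9 times in the 7 windows. It is so short that 96.0% of all 32851 windows hold it, with a median of 3 per window. All motifs were searched on both strands. The longer CGGAAG, which contains the core, was found in the Tie1 window alone, against 16.9% of all windows. GATAA was present in Tek and Emcn (25.4% of all windows), and ACAAT, a SOX core, in Robo4, Tek and Emcn (31.0%). GGGCGG, a GC box, was present in Kdr and Flt1 (35.7%), and a TATAAA box in Flt1 alone (13.6%). AAACA, a FOX core, was present in 4 of the 7 windows (50.5%), and CACCC, a KLF core, and the E-box CANNTG in 6 each (57.5% and 72.3%). GC content of the windows ranged from 41.0% in Emcn to 70.7% in Flt1. These matches are counts of letters in the windows and not of bound sites.

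Genes next to the marker genes in the RefSeq order of GRCm38.p6 differed in either direction at shares near those of all probe sets. Of 18 measured neighbours, 5 had both FD arrays higher and 6 had both lower, where 36.3% and 27.2% of all probe sets did, and 7 overlapped. Their median difference was 0.02. Robo4 and Esam, the genes with the highest differences, lie on chromosome 9 with Robo3 and Msantd2 between them. Robo3 was at 6.71 and 6.85 in FD and at 6.59 and 6.75 in ND, and Msantd2 at 7.88 and 7.78 in FD and at 7.89 and 7.82 in ND, so both overlapped between the diets. On the far sides, Hepacam next to Robo4 differed by -0.03 with overlap, and Vsig2 next to Esam by 0.41. Kit, the neighbour of Kdr and itself a receptor tyrosine kinase, differed by 0.02. Of the neighbours, Cdh11, a mesenchymal cadherin next to Cdh5, was called higher at 0.61, where 1.33% of all probe sets were. Fpgs next to Eng was called lower at -0.65, where 4.28% were.

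The 30 other endothelial genes, all measured, gave a like picture. In 3 of them the arrays overlapped (Tal1, Exoc3l2 and Sox13). Both FD arrays were higher in the other 27 (36.3% of all probe sets) and lower in none (27.2%). As with the 10, this direction depended on the scaling, and 25 of the 30 were above 0 after scaling on adipocyte genes and 4 after scaling on fibroblast genes. The median difference was 0.28, against 0.34 for the 10 marker genes, and no test compared the lists. Mmrn2, an endothelial matrix protein, was the one called higher, where 1.33% of all probe sets were. It was at 11.10 and 11.14 in FD and at 10.45 and 10.61 in ND, a difference of 0.59. Rasip1, which acts in vessel lumen formation, differed by 0.54, Cd34, a surface sialomucin also found on adipose progenitors, by 0.50 and Ushbp1 by 0.49. The call of Mmrn2 was close to the threshold.

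Markers of other cells of the fat pad also differed between the pools, and their part in the endothelial values was not tested. Among all probe sets, 36.3% had both FD arrays higher, 27.2% had both lower and 1.33% were called higher. Summed over the 10 genes before taking log2, the endothelial marker genes were at 14.38 and 14.39 in FD and at 14.00 and 14.11 in ND. Of 11 measured fibroblast genes, 6 were called higher and 10 had both FD arrays higher, with a median of 0.61. Their sum was at 15.75 on both FD arrays and at 15.37 and 15.34 in ND. Thy1 (0.79) and the collagen genes Col5a2 (0.75), Col6a3 (0.74) and Col3a1 (0.73) led this list. Of 8 mesothelial genes, which mark the lining of the fat pad, 6 were called higher, with a median of 0.88 and a sum of 13.38 and 13.36 in FD against 12.51 and 12.66 in ND. Msln (1.25), Upk1b (1.10), Upk3b (1.07) and Lrrn4 (0.92) led it. Mesothelial genes kept a median above 0 after scaling on fibroblast genes, at 0.39.

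Pecam1 is also made by leukocytes and platelets. Of 12 leukocyte genes, 11 had both FD arrays higher (36.3% of all probe sets). The median of the 12 was 0.36, and their sum was 13.66 and 13.65 in FD against 13.28 and 13.41 in ND. Among the 11 genes at the level of 6 in both pools, 1 was called higher (1.33% of all probe sets). That was Itgam, an integrin of myeloid cells, at 0.64. The B cell gene Cd79a differed by 0.82, but its ND arrays were under 6. The size of its difference is thus not determined, and it was not counted as a call. The macrophage genes Cd68 and Adgre1 differed by 0.49 and 0.46. Scaling on fibroblast genes put the median of the leukocyte list at -0.12. Of 6 measured platelet genes none was called higher, and their sum was 10.59 on both FD arrays against 10.57 and 10.63 in ND. Gp9 was called lower at -0.63, while Gp1bb at 0.25, Pf4 at 0.21 and Treml1 at 0.06 gave the list a median of 0.05 with the others.

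Genes of the mural list, taken to mark cells that wrap vessels, were split, and which cells made these RNAs was not tested. Of 14 mural genes, 8 had both FD arrays higher (36.3% of all probe sets) and 5 had both lower (27.2%), with a median of 0.22. The pericyte gene Cspg4 was called higher at 0.81, with 9.88 and 9.86 in FD and 9.08 and 9.04 in ND, and Pdgfrb and Anpep differed by 0.37 each, while Cnn1 of smooth muscle differed by -0.55. The median was 0.08 after scaling on adipocyte genes and -0.27 after scaling on fibroblast genes. The summed level of the list was at 15.43 and 15.41 in FD and at 15.43 and 15.47 in ND. Of 18 measured adipocyte genes, 1 was called higher (Cidea at 1.13), and 12 had both FD arrays higher (1.33% and 36.3% of all probe sets). Their median was 0.17, and their sum was 17.13 and 17.10 in FD against 16.91 and 17.00 in ND. Aqp7, Pck1 and Plin1, genes of lipid storage and glycerol handling, differed by 0.42, 0.40 and 0.34. The 7 epididymal genes at the level of 6 in both pools had differences between -5.78 and -1.51, and the list had a sum of 12.32 and 12.25 in FD and of 15.63 and 15.62 in ND. Adam7, Defb22, Rnase9 and Defb26 reached the level of 6 in ND alone, so the size of their differences is not determined. They were left out of the 7 but are part of the sum, which is over 11 genes. Of 10 reference genes, none was called, with a median of -0.05 and Ywhaz at -0.28, Tbp at -0.27, Gusb at 0.25 and Rplp0 at -0.23.

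**Figure D4:**
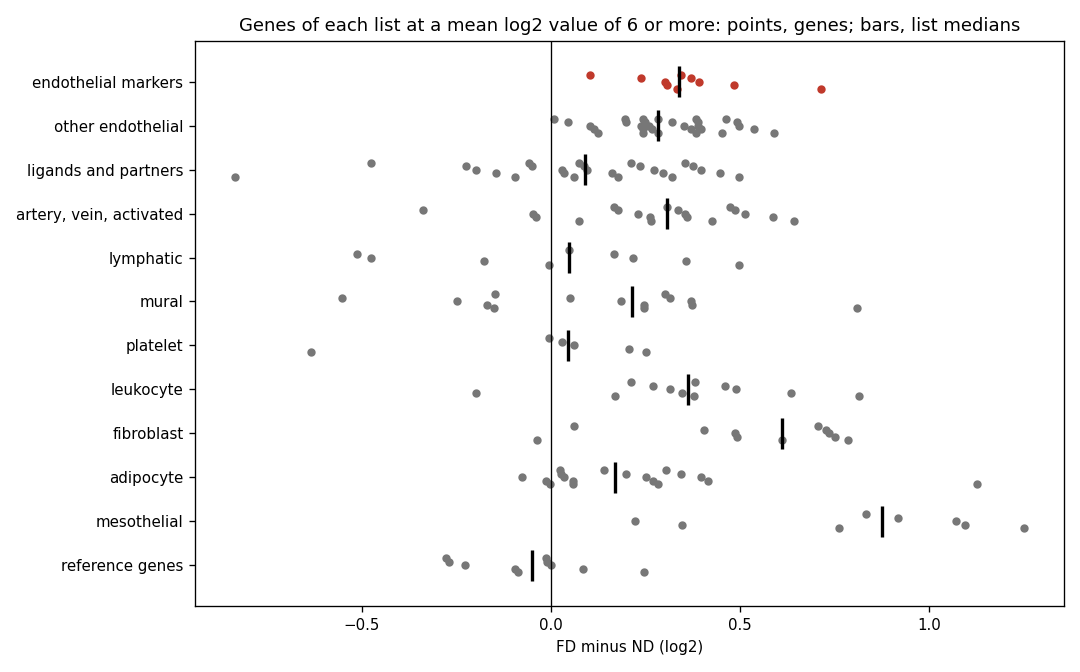
Difference between FD and ND (horizontal axis, log2) of the genes of 12 lists that reach the level of 6, with points for genes and bars for list medians. The median of the endothelial marker genes (0.34) lies below those of the fibroblast (0.61) and mesothelial (0.88) genes and above that of the adipocyte genes (0.17). Close to it are the leukocyte genes (0.36) and those of arteries, veins and activated endothelium (0.31). Scaling on adipocyte genes puts Kdr, and scaling on fibroblast genes 8 of the 10, on the other side of 0. Epididymal genes lie outside the axis and are not drawn.

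A scaling moves all 10 genes together, so their order stayed while their place relative to 0 did not, and cyclic loess swapped Flt1 and Cdh5 alone. Scaled on the adipocyte genes, which put the median of all probe sets at -0.10 against 0.03 as deposited, the median of the 10 was 0.21. Robo4 was then at 0.58, just under the threshold, and Kdr at -0.03. Scaling on the fibroblast genes, a choice made after the data were seen, put the median of all probe sets at -0.45. The median of the 10 was then -0.15, with Robo4 at 0.23, Esam at 0.0007 and Kdr at -0.38.

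**Figure D5:**
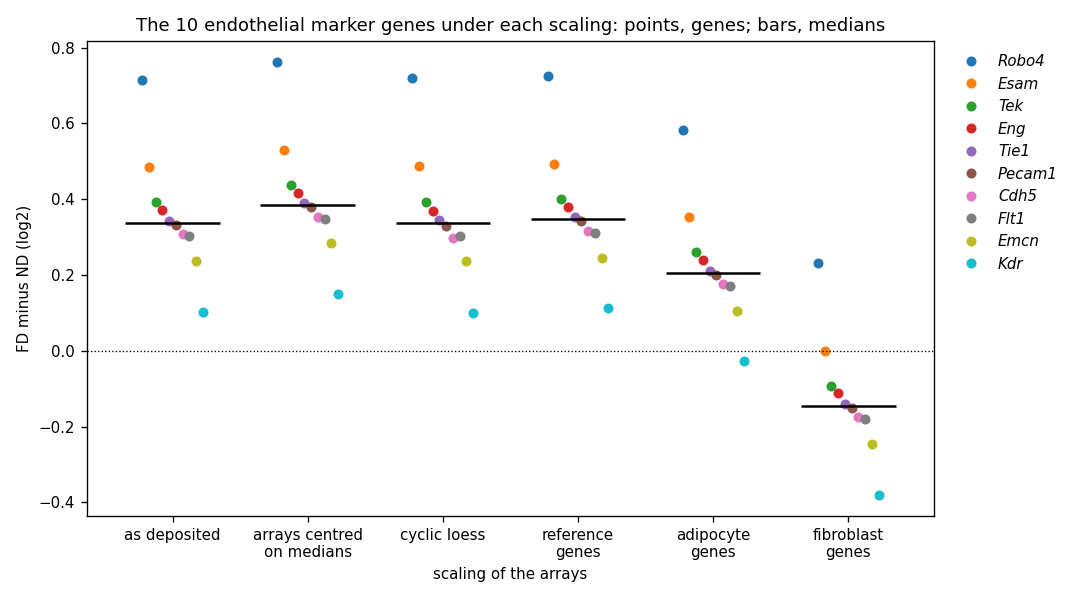
Difference between FD and ND (vertical axis, log2) of the 10 endothelial marker genes under 6 scalings of the arrays, with points for genes and bars for medians. The medians are 0.34 as deposited, 0.38 with each array centred on its median, 0.34 with cyclic loess, 0.35 on reference genes, 0.21 on adipocyte genes, where Kdr turns below 0, and -0.15 on fibroblast genes, where all but Robo4 and Esam do.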

How the data were processed

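Expression in gonadal WAT was measured on 4 arrays, 2 for each diet's RNA pool of 3 male NMRI mice. The log2 expression values deposited by the authors come from RMA, as named in the submitters' processing notes. Not given in the sources used here were the software, its version and the genome build, and the study's methods describe qPCR rather than the arrays. The values were used as deposited. Each named gene has 1 probe set. Precision is limited by how few arrays there are.

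The 10 marker genes, the 12 other lists and the motifs were chosen with earlier results of these data known. The lists hold 194 entries with those of the markers, of which 186 are named on the array, and members under a mean of 6 were left out. No p-value was computed, because each diet is 1 RNA pool, and a rule of size across all genes stood in place of a test. The rule was tested on simulated data. All 10 symbols matched RefSeq (GRCm38.p6) by Entrez gene number. Protein sequences were not used here. The text names the 10 genes, up to 4 genes of each list with the largest differences, and the neighbours of the 10. Ligands and partners were also named by their role. Adipoq, Erg, Fli1, Tal1, Exoc3l2, Sox13, Apln and S1pr1 were named after their values were seen. So were, in the closing section, Gja4, Dll4, Nr2f2, Efnb2, Bmx, Notch1, Ephb4, Ackr1, Prox1, Flt4, Pdpn and Stab2.

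Alternatives were other scalings (array medians, cyclic loess in limma 3.58.1, reference, adipocyte and fibroblast genes), filters of none, 7 or 10, thresholds of 1.3-fold and 2-fold, unlogged means and leaving out each array. The fibroblast scaling and the filter at 10 were added after the data were seen. Python 3.11.15, pandas 2.3.3 and R 4.3.3 were used.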

Additional observations from a re-analysis of the deposited data

How the results depend on the processing

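Of the 10 genes, Robo4 was called higher with each array centred on its median, with cyclic loess, with scaling on reference genes, with filters of none, 7 or 10, with means of unlogged values and without any 1 array. None of the 10 was called higher (0) with scaling on adipocyte genes, with scaling on fibroblast genes or at 2-fold, and 3 were called at 1.3-fold. No setting called any of them lower. The count with all FD arrays higher was 9 with scaling on reference genes (35.4% of all probe sets), 8 on adipocyte genes (15.1%) and 1 on fibroblast genes (1.26%). It was 10 with centring on medians (46.6%), with cyclic loess (30.4%), with unlogged means (36.3%), with filters of none, 7 or 10 (33.3% to 35.9%) and with 1 array left out (42.7% to 53.6%). The median difference was 0.21 on adipocyte genes, -0.15 on fibroblast genes and between 0.32 and 0.41 with 1 array left out, lowest without ND array 1. Over all probe sets, 242 were called higher and 780 lower as deposited, 125 and 1084 on adipocyte genes, 34 and 4695 on fibroblast genes, 869 and 1333 at 1.3-fold, 41 and 386 at 2-fold, and 67 and 125 among probe sets at a level of 10. The share of calls that were higher was 23.7% as deposited, 10.3% on adipocyte genes, 0.719% on fibroblast genes, 39.5% at 1.3-fold, 9.6% at 2-fold and 34.9% at a level of 10. Of 100 values for single genes under 10 settings, 91 were above 0 and 9 below it, namely Kdr on adipocyte genes and 8 genes on fibroblast genes. No paired analysis was possible because the arrays of a diet are duplicates of 1 RNA pool, no test was made and their numbers pair nothing.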

Other observations

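Genes that mark arteries, veins and activated endothelium were mostly higher in the FD pool as deposited, while scaling on fibroblast genes put 15 of 19 below 0, with a median of -0.18. Of 19 measured, 15 had both FD arrays higher (36.3% of all probe sets did), 1 had both lower and 3 overlapped, with a median difference of 0.31, and 2 were called. These were the arterial connexin gene Gja5, at 9.05 and 9.16 in FD and at 8.49 and 8.43 in ND (0.64), and the Notch target Hey1, at 8.26 and 8.33 in FD and at 7.80 and 7.61 in ND (0.59). The chemokine receptor gene Cxcr4 differed by 0.51, P-selectin (Selp) by 0.49, the arterial connexin gene Gja4 by 0.47 and the Notch ligand Dll4 by 0.36, and none of these was called. Nr2f2, a transcription factor of venous identity that other cells of fat also make, had a difference of -0.34, at 10.79 and 10.89 in FD and at 11.09 and 11.28 in ND. Two-way splits by vessel type were not seen in the rest, as the vein genes Ephb4 and Ackr1 were higher on both FD arrays, by 0.23 and 0.34. The 3 that overlapped were the arterial genes Efnb2 (-0.05) and Bmx (0.07) and the Notch receptor gene Notch1 (-0.04). These values rest on a single RNA pool of each diet.

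Of 9 measured lymphatic genes, 4 had both FD arrays higher and 3 had both lower, shares near the 36.3% and 27.2% of all probe sets. The other 2 overlapped, no gene was called and the median was 0.05. Scaling on fibroblast genes left 1 above 0 and put 8 below it. Lyve1 and Stab1, which macrophages also make, differed by 0.50 and 0.36. Pdpn and Stab2 were also higher on both FD arrays, by 0.22 and 0.17. Mmrn1 and Reln had differences of -0.51 and -0.47, the lymphatic transcription factor gene Prox1 one of -0.18, and Flt4, the gene of the VEGF-C receptor, one of 0.05 with overlapping arrays. Among the other ligand and receptor genes of vessels, Aplnr, the apelin receptor, differed by 0.50 and Angptl4, an inhibitor of lipoprotein lipase, by 0.45, with no overlap in either.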
